A study of Mus musculus with 4 samples.

Results

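Mucosal mast cells were picked out of single-cell RNA sequencing of mouse small intestinal adenomas by their granule protease RNA. A barcode counted as a mast cell when it held at least 10 UMIs (unique molecular identifiers, 1 for each captured RNA molecule) of Mcpt1 and Mcpt2 together with both genes detected, at least 1 UMI of Kit, Cpa3 or Fcer1a, and under 0.2% of its UMIs from the epithelial genes Epcam, Krt8 and Krt19. Barcodes with at least 1000 UMIs, at least 200 genes and at most 20% mitochondrial UMIs were considered, and 87 of 12349 such barcodes met the rule. Because the cells were chosen by the measured UMIs of these 8 genes, their levels are given as a description only, and so is every comparison of mast cells with other cells. The tumors came from C57BL/6 mice aged 11 weeks that all carried the ApcMin/+ allele, which starts intestinal adenomas. ApcMin mice were Lef1 +/+, and VApcMinL mice were Lef1 fl/fl with Villin-Cre, so that Lef1, a transcription factor of the Wnt pathway, was deleted in the intestinal epithelium. Villin-Cre acts in epithelial cells and not in mast cells, which means that the genotype comparison below concerns cells outside the targeted lineage. Between 3 and 10 tumors were pooled for a library and dissociated with enzymes, and cells were loaded without sorting. There were 2 libraries of each genotype, and each 10x kit version held 1 of each, with replicate 1 in kit version 2 and replicate 2 in kit version 3. How many mice gave each pool is not given in the sources used here, so tests measure the spread between these libraries.

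Mast cells are tissue-resident granulocytes that arise from bone marrow progenitors and mature under KIT signaling. Their granules hold histamine or serotonin, proteoglycans and large amounts of a few proteases, and binding of allergen to IgE on the FceRI receptor releases them within minutes. In the mouse the mucosal type sits in the epithelium and lamina propria of the gut, stores the chymases Mcpt1 and Mcpt2, and expands during worm infection. The connective tissue type of skin and peritoneum instead stores Mcpt4, Cma1, the tryptases Tpsb2 and Tpsab1, and Cpa3.

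The 4 libraries held 44660305 to 128247396 UMIs in all. The mast cells numbered 9 in ApcMin library 1, 55 in VApcMinL library 1, 22 in ApcMin library 2 and 1 in VApcMinL library 2. The lone cell of the last library has no replicate within it, and every mast cell level given for that library is the value of 1 cell. The library names are the labels, and 2 checks bear on them. Lef1 stood at 4.82 and 9.25 CPM in the epithelial barcodes of the ApcMin libraries and at 10.3 and 15.2 in those of the VApcMinL libraries, which is no lower under the label of the deletion. These are counts of RNA 3′ ends, and whether those ends lie in the deleted part is not given in the sources used here, so Lef1 neither checks the labels nor clears them. All 4 libraries are labelled male, but Xist, the RNA that coats the inactive X of female cells, had 31217 and 29717 UMIs over all kept barcodes of the libraries labelled VApcMinL and 9 and 12 in those labelled ApcMin. The Y-linked genes Ddx3y, Eif2s3y, Kdm5d and Uty had 3199 and 5661 UMIs in the ApcMin libraries, 1 in VApcMinL library 1 and 7998 in VApcMinL library 2, which thus held both kinds of RNA. Kept barcodes shared between libraries numbered 18 for the pair of kit version 2 and 1 for ApcMin library 1 with VApcMinL library 2, and 1 mast cell barcode was among the kept barcodes of another library. No doublet caller was run.

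Among barcodes that met the other clauses, the lowest members held 80, 31, 117 and 519 UMIs of Mcpt1 and Mcpt2 (ApcMin 1, VApcMinL 1, ApcMin 2, VApcMinL 2), and the highest barcodes outside held 8, 3, 5 and 0. No member held 10 to 19 UMIs, and 2 barcodes lay just outside with 5 to 9. Of 134 barcodes that passed the protease clause, 47 were left out as epithelial, 10 of them with UMIs of Kit, Cpa3 or Fcer1a. As a background level, the pair stood at 37.9, 121, 41.6 and 11.3 CPM (counts-per-million, the UMIs of a gene scaled to the total of the same cells) in epithelial barcodes of the 4 libraries.

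Mcpt1 and Mcpt2, the leading proteases of mast cells, lie in the chymase locus on chromosome 14, which spans chr14:55941451-56262260 of GRCm38 in GENCODE M21 from Cma1 to Gzmb and holds 15 protein-coding genes. Mast cells had UMIs of 10 of the 15, and 8 were detected in at least 10% of cells. Of 59547 UMIs from the locus, 90.7% came from Mcpt1 (chr14:56017971-56020384, plus strand) and Mcpt2 (chr14:56042041-56044642, plus strand). Between and beside them, Mcpt9 (minus strand) gave 264 UMIs, Mcpt4 (chr14:56059629-56062313, minus strand) 953, Cma1 2249, Cma2 1606 and the basophil protease Mcpt8 176. Gzmb, a granzyme at the far end of the locus, gave 253, whereas Gzme, Gzmd, Gzmg, Gzmn and Gzmf between Mcpt8 and Gzmb had none in 362374 mast cell UMIs, which allows up to 8.28 CPM. Each UMI marks the 3′ end of 1 RNA, so counts of different genes can be set side by side without a correction for length. The counts of Cma2, Mcpt9 and Mcpt4 are uncertain, however, since their transcripts share stretches of sequence, as given below.

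**Figure D1:**
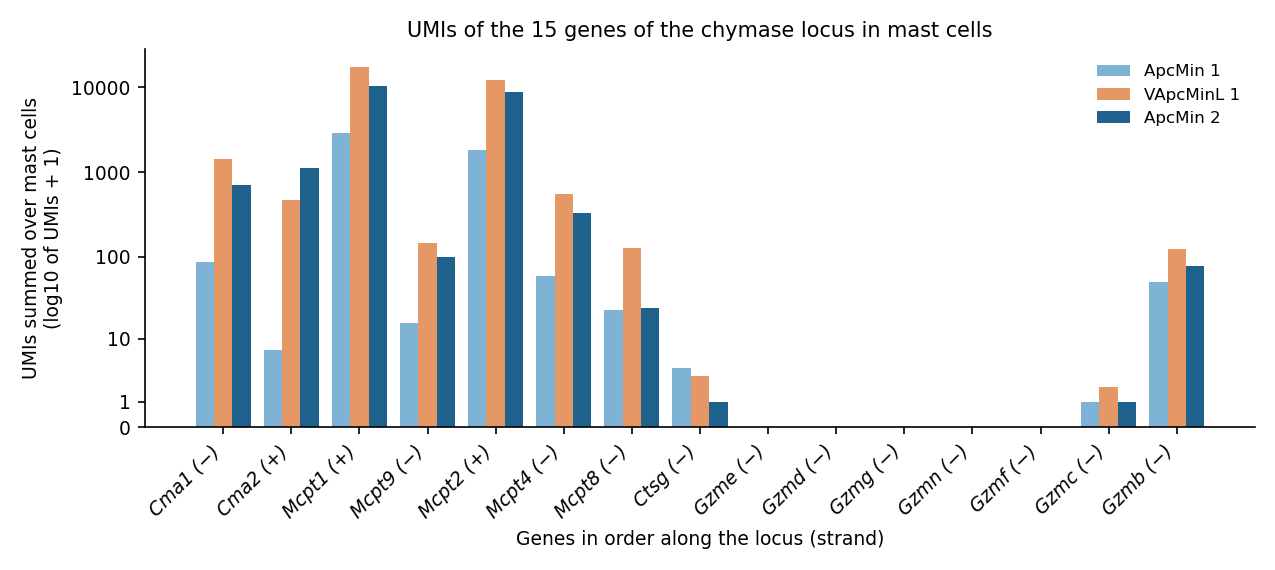
UMIs of the 15 protein-coding genes of the chymase locus, summed over the mast cells of 3 libraries (9, 55 and 22 cells), in their order along chromosome 14, with the strand in brackets and a log10 scale of UMIs + 1. Mcpt1 and Mcpt2 tower over their neighbors in each library, 5 granzyme genes have no UMI, and VApcMinL library 2 with its single cell is not drawn.

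Mcpt1 and Mcpt4 are genes of the same locus whose promoters are close relatives yet whose RNA levels were far apart, with 30948 and 953 UMIs. The rule required Mcpt1 and not Mcpt4, so this gap only describes the chosen cells and is partly set by the choice. The 250 bases before the RefSeq start of each (GRCm38.p6, read 5′ to 3′ on the gene's strand) are shown because the promoters of Mcpt1 and Mcpt4 were identical at 208 of 246 aligned bases (84.6%), and those of Cma1 and Cpa3 are shown as a near and an unrelated protease promoter, with identities to Mcpt1 of 66.5% and 52.5%. Capitals mark words bound by GATA factors such as GATA2, either AGATAA and its variant ending in G, which is AGATAG, or TGATAA and its variant ending in G, which is TGATAG, on the printed strand or as the reverse complement.
Mcpt1: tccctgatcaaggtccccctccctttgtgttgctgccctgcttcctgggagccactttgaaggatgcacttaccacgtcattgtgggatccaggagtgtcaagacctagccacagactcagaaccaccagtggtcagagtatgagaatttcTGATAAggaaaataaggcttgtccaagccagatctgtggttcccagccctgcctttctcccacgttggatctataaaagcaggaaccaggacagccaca
Mcpt4: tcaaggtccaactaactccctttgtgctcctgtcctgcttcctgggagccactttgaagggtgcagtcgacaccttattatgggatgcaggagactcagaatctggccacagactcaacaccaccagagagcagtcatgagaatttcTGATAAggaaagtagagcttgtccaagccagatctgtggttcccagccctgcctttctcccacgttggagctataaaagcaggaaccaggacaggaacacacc
Cma1: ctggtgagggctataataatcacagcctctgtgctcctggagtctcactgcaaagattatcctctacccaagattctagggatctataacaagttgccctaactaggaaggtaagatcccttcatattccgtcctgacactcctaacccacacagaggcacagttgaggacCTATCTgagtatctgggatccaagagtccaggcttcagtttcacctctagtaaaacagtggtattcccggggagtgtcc
Cpa3: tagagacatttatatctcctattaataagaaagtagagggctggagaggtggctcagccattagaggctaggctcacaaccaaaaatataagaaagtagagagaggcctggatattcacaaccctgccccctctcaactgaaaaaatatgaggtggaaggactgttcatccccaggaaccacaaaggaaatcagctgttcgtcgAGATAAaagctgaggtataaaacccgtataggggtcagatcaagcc
They occupy chr14:56017714-56017963 (plus strand), chr14:56062311-56062560 (minus), chr14:55944676-55944925 (minus) and chr3:20242182-20242431 (minus). The same word, TGATAA, begins 99 bases before the start of Mcpt1 and 103 before that of Mcpt4. Whether it has a part in the RNA levels of these genes was not tested. Of 32851 promoter windows of the same length, 26.5% held at least 1 of the words on either strand. Among 15 mast cell genes looked up, 12 had an entry and 8 of those held a word, namely Mcpt1, Mcpt4, Cma1, Cpa3, Fcer1a, Ms4a2, Hdc and Tph1, whereas Mcpt8, Mcpt9, Kit and Gata2 held none. The first entry of each gene was counted, and a second entry of Tph1 held no word. A word found in this way is only a match of letters.

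Mcpt1 and Mcpt2 alone made up a median of 14.1% of all UMIs of a mast cell, from 1.62% to 34.4%. The median share was 9.96% in ApcMin library 1, 12.3% in VApcMinL library 1 and 16.7% in ApcMin library 2, and the single cell of VApcMinL library 2 had 15.5%. Mcpt1, a secreted chymase that loosens epithelial junctions in the infected gut, stood at 73296, 81748, 96928 and 87962 CPM, and Mcpt2, its close relative, at 46567, 57459, 82114 and 67847. The ranges of the libraries labelled ApcMin and VApcMinL thus overlapped for both genes. Mcpt1 exceeded Mcpt2 in 72 of 87 cells, with a median of 58.8% of the pair, but the balance ran from 6.25% to 96.1% between cells. Over cells the shares of both genes in a cell's UMIs rose together, with Spearman's rho of 0.82 in the 55 cells of VApcMinL library 1 and 0.43 in the 22 cells of ApcMin library 2. These points share a library, and as shares of 1 total they are not free of each other.

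Cpa3, the carboxypeptidase that trims granule contents and venoms, was found in 87 of 87 cells at 4206, 7208, 5720 and 2101 CPM. Fcer1a was found in 86 cells and Kit in 56. A single cell passed on only 1 of these 3 genes, and 56 cells held all 3. Median depth was 3587 UMIs and 1219 genes for a mast cell, against 19222 UMIs for an epithelial barcode and 2163 for a T cell, so low genes are missed more often in mast cells than in epithelial cells.

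**Figure D2:**
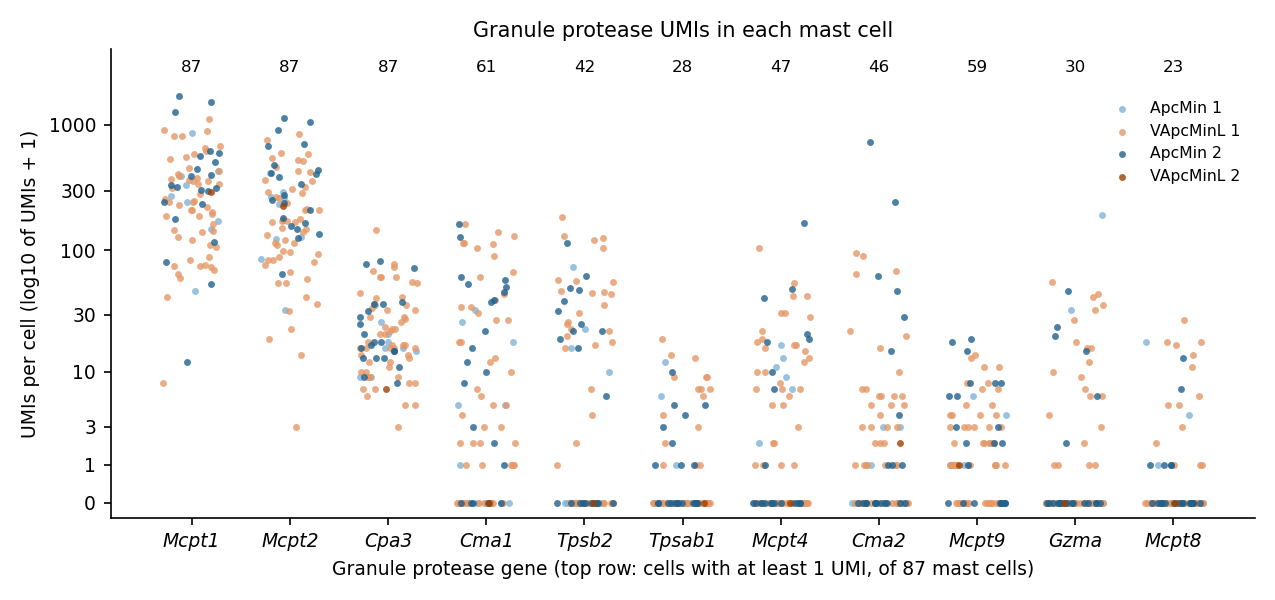
UMIs of 11 granule protease genes in each of the 87 mast cells, on a log10 scale of UMIs + 1, with 1 point for a cell, colored by library, and the number of cells with at least 1 UMI above each gene. Mcpt1, Mcpt2 and Cpa3 form a single band, whereas Tpsb2 splits into 45 cells at 0 and a band mostly above 10.

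Genes held to mark connective tissue mast cells were common in these Mcpt1- and Mcpt2-expressing cells. Cma1 was detected in 61 of 87 cells, Mcpt4 in 47, Cma2 in 46 and Tpsb2 in 42, and 19 cells held Mcpt4, Cma1 and Tpsb2 together whereas 10 held none of the 3. Cma1 stood at 2230, 6854 and 6582 CPM in ApcMin library 1, VApcMinL library 1 and ApcMin library 2, and Tpsb2 at 3116, 5980 and 4218. In T cells, macrophages, B and plasma cells and epithelial cells of any 1 library, Cma1 was at most 27.1 CPM and Tpsb2 at most 4.52. By contrast Mrgprb2 and Mrgprb1, receptors of connective tissue mast cells for cationic peptides and drugs, had no UMI in 87 cells, which allows a share of cells with a UMI of up to 3.45%. Connective tissue mast cells without the mucosal chymases would not have been counted, since the rule required Mcpt1 and Mcpt2. Hdc, which makes histamine, was detected in only 15 cells, 28 of its 65 UMIs in 1 cell, while Tph1, which makes serotonin, was detected in 71.

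The tryptase gene Tpsb2 (chr17:25366305-25369098) divided the cells. It had no UMI in 45 cells, 1 to 9 UMIs in 5 and 10 or more in 37, with up to 183 in a cell. The cells without Tpsb2 numbered 5 of 9, 29 of 55, 10 of 22 and 1 of 1 in the 4 libraries, so each library with several cells held both kinds. The median depth was 3187 UMIs in cells without Tpsb2 and 3842 in those with 10 or more. When each cell was thinned to 1000 UMIs, 46 cells had no Tpsb2 UMI, against 45 at full depth. Choosing the limits of 0 and 10 UMIs followed a look at the values, and what follows is a description of 2 ends of 1 gene's range with no test.

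Tpsab1, the neighboring tryptase gene on chromosome 17, was detected in 28 of 37 Tpsb2-high cells and in none of the 45 without. Cma1 followed the tryptases, being detected in 36 of the 37 and in 20 of the 45. In VApcMinL library 1 its level was 13215 CPM in Tpsb2-high cells against 680 in cells without, and in ApcMin library 2 it was 10980 against 2808. In ApcMin library 1, with 4 cells against 5, the levels were 2339 and 2156, so the gap of the larger libraries was not seen there. Among 1413 other genes found in at least 20% of mast cells of both larger libraries, the 5 whose share of a cell's UMIs tracked that of Tpsb2 most closely in both were Tpsab1 (rho of 0.76 over 55 cells and 0.80 over 22), Cma1 (0.76 and 0.74), Cd200r3 (0.63 and 0.55), Tpsg1 (0.50 and 0.46) and Cd200r4 (0.41 and 0.50). Tpsg1 is another tryptase gene of the same cluster, and Cd200r3 and Cd200r4 encode activating receptors of the CD200R family on basophils and mast cells.

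The 5 genes least like Tpsb2 by the same measure were Gzma, granzyme A (rho of -0.45 and -0.60), the chymase Mcpt9 (-0.41 and -0.40), Gm2a, a lysosomal lipid-binding protein (-0.55 and -0.35), Calm2, a calmodulin (-0.38 and -0.33), and Ifitm1, an interferon-induced membrane protein (-0.32 and -0.36). Gzma was detected in 24 of 45 cells without Tpsb2 and in 5 of 37 Tpsb2-high cells. Its level was 3212 against 309 CPM in VApcMinL library 1, 2052 against 0 in ApcMin library 2 and 9514 against 0 in ApcMin library 1, where 192 of 225 UMIs came from 1 cell. Pooled over libraries, T cells carried 16179 CPM of Gzma and mast cells 1904. Cd3d, Cd3e, Cd3g, Cd4 and Cd8a had no UMI in any of the 87 mast cells. Whether RNA from other cells had a part in these Gzma counts was not tested. The rule gene Mcpt1 stood at 83799 without and 87443 with Tpsb2 in VApcMinL library 1 and at 107913 and 87884 in ApcMin library 2, so the 2 libraries ran opposite ways. Fcer1a did so too, with 2749 and 2995 in the former and 1962 and 1766 in the latter, whereas Cpa3 was higher with Tpsb2 in both, at 5858 and 7760 and at 3906 and 8129. Mcpt2, the other rule chymase, was also higher with Tpsb2 in both, at 50698 and 69730 and at 72470 and 97757. In ApcMin library 1 Mcpt2 stood at 39958 without and 56448 with Tpsb2.

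**Figure D3:**
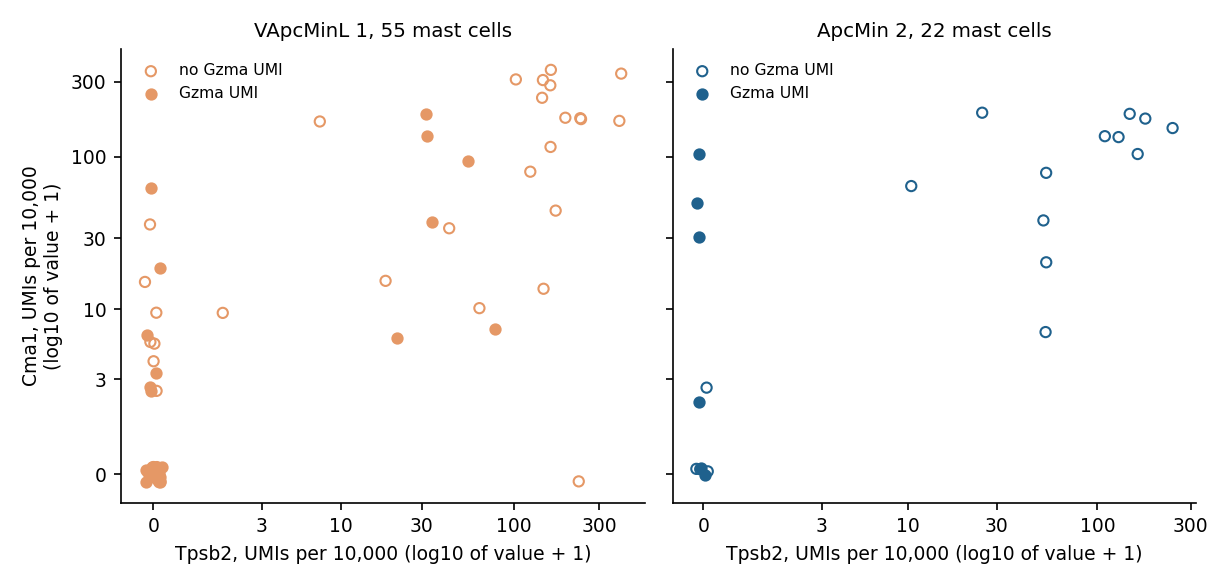
Tpsb2 against Cma1 in each mast cell of the 2 libraries with more than 20, in UMIs per 10000 of the cell's own total on log10 scales of the value + 1, with a small random shift so that cells at 0 can be seen and filled points for cells with a Gzma UMI. Cells with much Tpsb2 have much Cma1 and are mostly open points, whereas filled points gather at 0 on the Tpsb2 axis.

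Cma2 was detected in 31 of 45 cells without Tpsb2 and in 12 of 37 Tpsb2-high cells, at 3501 against 597 CPM in VApcMinL library 1 and 19387 against 1107 in ApcMin library 2, while ApcMin library 1 had 169 and 190. Mcpt4 was detected in 28 of 45 cells without Tpsb2 and in 18 of 37 with it, and its level was higher without Tpsb2 in VApcMinL library 1 (2842 against 1863 CPM) and lower in ApcMin library 2 (1206 against 5639). Cma2 reached 726 UMIs in 1 cell of ApcMin library 2, which was 45.2% of its 1606 UMIs over all mast cells, so the 10475 CPM of that library rest largely on that cell. Of the 898 windows of 50 bases in the Cma2 transcript, 367 occur unchanged in that of Mcpt9 and 58 in that of Mcpt4, so reads of Cma2, Mcpt9 and Mcpt4 can be lost or split between them and their levels are uncertain. The transcripts of Mcpt1, Mcpt2, Cma1, Tpsb2 and Tpsab1 shared no such window with one another or with the other 4 chymase transcripts compared.

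Outside the granules, the 20 genes that stood highest over all other barcodes of their own library included the IgE receptor chains, eicosanoid and serotonin synthesis and a lineage factor. These were ranked by the lower log2 ratio, of CPM + 10, of the 2 libraries with at least 20 mast cells. After Mcpt1 (10.12), Mcpt2 (9.74), Cma1 (8.998), Cpa3 (8.99), Tpsb2 (8.58), Mcpt4 (7.82), Cma2 (7.66) and Fcer1a (7.48) came Ms4a2 (6.27), Alox5ap (6.21), Tph1 (6.17) and Mcpt9 (6.06). They were followed by Prnp (5.51), Ctla2a (5.35), Gata2 (5.22), Srgn (5.19), Tpsab1 (4.93), Lat2 (4.89), Itga2b (4.80) and Rac2 (4.79). Of the 1847 genes that passed the detection filter in mast cells, 324, or 17.5%, exceeded a ratio of 1 on this log2 scale in both libraries. That filter and the choice of cells both favor genes that are high in mast cells, so the counts by gene group below are read as lists of what was found.

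**Figure D4:**
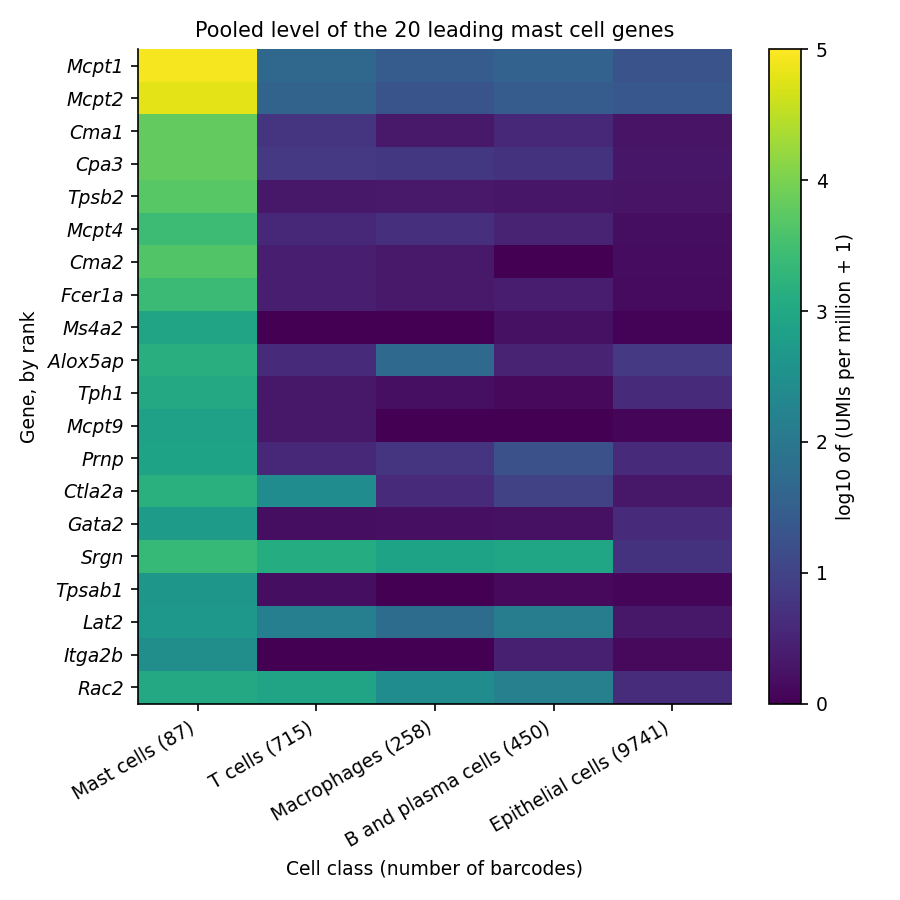
Pooled level, as log10 of CPM + 1, of the 20 leading genes (rows, by rank) in mast cells and 4 comparison classes (columns, with the number of barcodes). Ms4a2, Tph1, Gata2 and Itga2b are low outside mast cells, whereas Srgn and Rac2 are also high in T cells, macrophages and B and plasma cells.

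All 3 chains of the IgE receptor were present. Ms4a2, its beta chain and no part of the rule, was detected in 81 of 87 cells at 785, 798, 871 and 1201 CPM and was at most 4.08 in the 4 comparison classes of any 1 library. Fcer1g, the signaling gamma chain, stood at 2067 in mast cells but at 2753 in macrophages and 1504 in T cells. Of the 18 listed genes of the receptor and its signaling, all had a UMI and 10 passed the filter, and each of these 10 exceeded the ratio of 1. The adaptors Lat2 and Lat were found in 64 and 40 cells, the kinases Lyn and Btk in 28 and 22, and Syk, the kinase recruited by the receptor, in only 7.

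Receptors for growth and alarm signals were lower. Kit, the receptor for stem cell factor, stood at 304, 255, 528 and 600 CPM, and Il1rl1, the IL-33 receptor, was detected in 50 cells at 152, 250, 464 and 600. In T cells of the same libraries Il1rl1 stood at 116, 14.3, 713 and 39.2 CPM. Csf2rb, the chain shared by the receptors for IL-3 and GM-CSF, was detected in 47 cells, and Crlf2, part of the TSLP receptor, in 41. Il9r, the receptor for the IL-9 that feeds intestinal mast cells, was detected in 6. Among the inhibitory receptors Cd300a was found in 32 cells and Milr1, called allergin, in 22. In the G protein-coupled and purine receptor list, P2rx4, P2rx7 and Adora3, the adenosine receptor that enhances degranulation, were found in 38, 26 and 18 cells.

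Among mediator genes, those for serotonin and some of those for leukotrienes and prostaglandin D2 were found. Tph1 stood at 836, 1162, 908 and 300 CPM and Slc18a2, the vesicle transporter that loads amines into granules, was detected in 35 cells. Srgn, the core protein of the granule proteoglycan, was detected in 84 cells at 2238 CPM, and Cd63, a granule membrane protein, in 87 at 8651. Of the 12 listed genes of prostaglandin and leukotriene synthesis, 4 passed the filter, and Hpgds, Alox5 and Alox5ap exceeded the ratio of 1. Alox5ap and Alox5, which start leukotriene synthesis, were detected in 78 and 50 cells, and Ltc4s, which makes leukotriene C4, in 12. Ltc4s stood at 0, 47.2, 64.9 and 0 CPM, against 191, 274, 183 and 246 in macrophages. Ptgs2 stood at 0, 4.72, 0 and 0 CPM, against 108, 53.7, 102 and 162 in macrophages. Hpgds, which makes prostaglandin D2, was detected in 50 cells at 221 CPM, close to the 159 of macrophages.

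Gata2, the factor that mast cells require, was detected in 65 cells at 456, 609, 426 and 1501 CPM against at most 5.50 in the comparison classes of any 1 library. Mitf, which acts with it, was found in 16 cells, Gata1 in 7 and Tal1 in 19. Both integrin chains of the receptor for epithelial E-cadherin were common. Itgae was detected in 50 cells at 279, 184, 621 and 1801 CPM and Itgb7 in 55 at 279, 373, 269 and 0. T cells of the same libraries held both genes too, with Itgae at 211, 338, 452 and 415 CPM and Itgb7 at 178, 235, 167 and 194. Cx3cr1, the fractalkine receptor better known from macrophages, was detected in 43 mast cells at 190 CPM, against 355 in macrophages.

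Of the 31 listed cytokines and chemokines, 21 had a UMI in mast cells and 4 passed the filter, namely Il4, Il6, Tgfb1 and Ccl4. Il6 was detected in 33 cells, Il4 in 31 and Il13 in 18, and 53 of 87 cells held at least 1 of the 3. Of these 53 cells, 29 had 1 of the genes, 19 had 2 and 5 had all 3. Il6 stood at 507, 288, 130 and 300 CPM, Il4 at 127, 180, 55.6 and 300, and Il13 at 101, 151, 9.27 and 0, while in the comparison classes of any 1 library Il6 was at most 12.8, Il4 at most 3.18 and Il13 at most 1.59. Thinned to 1000 UMIs, 20.7% of mast cells kept a UMI of Il6 and 17.2% of Il4, against 0.0308% and 0.0205% of epithelial cells, which should lack both. Il5, Il9, Il10, Csf2 and Areg had no UMI in the 87 cells. The chemokine Ccl4 had 110 UMIs in 18 cells, 12 of VApcMinL library 1 and 6 of ApcMin library 2, with 25 in the highest cell. Other chemokines rested more on single cells, as 26 of 53 Ccl2 UMIs and 22 of 48 Ccl1 UMIs lay in 1 cell each, both in VApcMinL library 1, and 23 of 34 Ccl7 UMIs in 1 cell of ApcMin library 1.

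A minority of mast cells held cell cycle RNA. At least 2 UMIs over Mki67, Top2a, Cdk1, Ccnb1, Ccna2 and Birc5 were found in 10 of 87 cells (11.5%, exact 95% interval 5.65% to 20.1%, counting error only), namely 1 of 9, 7 of 55, 2 of 22 and 0 of 1. These cells were deep, with a median of 6939 UMIs against 3345 in the other 77. Of the 10, 9 also held at least 2 UMIs of the T cell, macrophage or B and plasma cell lists, as did 23 of the 77, and without such cells the count was 1 of 55 (1.82%). The UMIs in question were mostly Cx3cr1, found in 8 of the 10, and with Cx3cr1 left out of the lists the share was 8.11%. Whether depth or a second cell in the droplet had a part in this was not tested.

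At least 1 UMI of the T cell, macrophage or B and plasma cell lists was found in 56 of 87 mast cells, and 2 or more in 32. C1qa, Csf1r, Adgre1, Cd79a and Ms4a1 had no UMI, as had all of the 5 T cell genes that the tables held. Of 121 UMIs over the 3 lists, 69 were of Cx3cr1 and 39 of Jchain, found in 9 of 9 mast cells of ApcMin library 1 and 14 of 55 of VApcMinL library 1. Jchain is an abundant plasma cell RNA that stood at 532 CPM in the mast cells of ApcMin library 1, 85.0 in VApcMinL library 1 and 0 in the others. Of 9 eosinophil genes only Siglecf had UMIs, in 6 cells. The basophil genes Mcpt8 and Prss34 were detected in 23 and 5 cells, and 18 of the 23 Prss34 UMIs lay in 1 cell of ApcMin library 2.

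The number of mast cells was then compared between tumors with and without the epithelial Lef1 deletion. Their share of all kept barcodes was 0.322% in ApcMin library 1 (9 of 2797, exact 95% interval 0.147% to 0.610%), 1.86% in VApcMinL library 1 (55 of 2959, 1.40% to 2.41%), 1.03% in ApcMin library 2 (22 of 2145, 0.644% to 1.549%) and 0.0225% in VApcMinL library 2 (1 of 4448, 0.000569% to 0.125%). The libraries labelled VApcMinL therefore held both the highest and the lowest share. The means were 0.674% ± 0.498 for ApcMin and 0.941% ± 1.30 for VApcMinL (SD, n = 2 libraries each), a difference of 0.267 percentage points with an exact two-sided permutation p of 1.00. With 2 libraries against 2, the smallest p such a test can give is 0.333. Within kit version 2 the library labelled VApcMinL was 1.54 points higher, and within kit version 3 the difference was -1.003 points. Free RNA was read from barcodes that the rule did not consider, but for the same genes that the rule used, so it is not independent of the rule. In barcodes with at most 100 UMIs, Mcpt1 and Mcpt2 together stood at 426, 2672, 921 and 132 CPM in ApcMin 1, VApcMinL 1, ApcMin 2 and VApcMinL 2. This was the order of the shares of all kept barcodes, but not that of the non-epithelial shares given below. The macrophage gene C1qa stood between 69.3 and 83.8 in all 4. Macrophages themselves numbered 122 of 2797, 66 of 2959, 22 of 2145 and 48 of 4448 kept barcodes, so for that class the free RNA did not follow the share of cells.

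**Figure D5:**
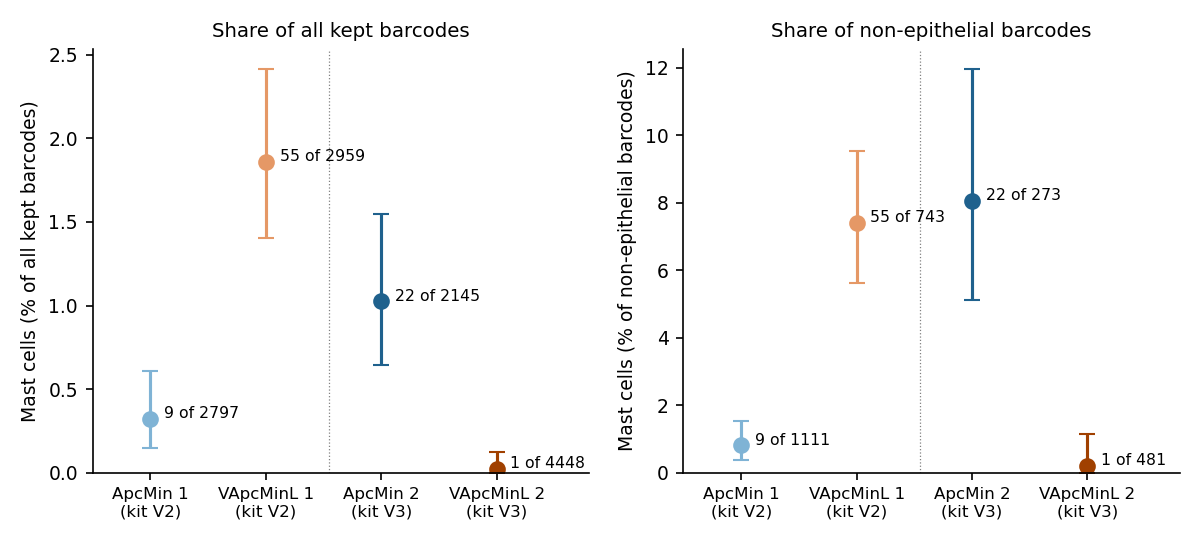
Share of mast cells in each library, as a percentage of all kept barcodes (left) and of non-epithelial barcodes (right), with exact 95% binomial intervals as bars and the counts beside the points. The dotted line separates the kits, and the library labelled VApcMinL is above its partner in kit version 2 and below it in kit version 3 in both panels.

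Among non-epithelial barcodes the order of the libraries and the sign of the difference changed. Mast cells were 0.810% of 1111, 7.40% of 743, 8.06% of 273 and 0.208% of 481 such barcodes in ApcMin 1, VApcMinL 1, ApcMin 2 and VApcMinL 2, so that the highest share lay in a library labelled ApcMin. The means were 4.43% ± 5.13 for ApcMin and 3.81% ± 5.09 for VApcMinL (SD, n = 2), a difference of -0.629 points (exact two-sided permutation p of 0.667). The within-kit differences were 6.59 and -7.85 points. When each barcode was thinned to 1000 UMIs the difference of the means became 0.114 points, and it also changed sign without ApcMin library 2 (3.00 points) or without VApcMinL library 2 (2.97 points).

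Gene levels in mast cells were then compared between the genotypes, on UMIs summed over the mast cells of each library with the kit as a block. Of 885 genes tested, 1 differed by edgeR's quasi-likelihood test at an adjusted p under 0.05, or 0.113% of those tested. That gene was Xist, with 0 and 0 UMIs in the mast cells labelled ApcMin and 154 and 2 in those labelled VApcMinL (adjusted p = 0.0107). Set against 3 UMIs over the ApcMin group, its level was at least 35.6-fold higher in VApcMinL mast cells. Xist UMIs were found in 47 of 55 and 1 of 1 VApcMinL mast cells, UMIs of the 4 Y-linked genes in 2 of 9 and 8 of 22 ApcMin mast cells, and no cell held both, while the labels call all 4 libraries male. Sex and genotype label cannot be told apart in these mast cells. DESeq2, run on 10750 genes, called none at an adjusted p under 0.05 and had 3 at an unadjusted p under 0.05, with a log2 difference for Xist of 7.10 against 8.45 in edgeR. With 1 library left out, the kit block could not be kept, since no residual degrees of freedom would remain, so those fits changed both choices. They called 0 genes without ApcMin library 1 (36 at an unadjusted p under 0.05) or VApcMinL library 1 (38), 12 without ApcMin library 2 and 4 without VApcMinL library 2. Xist was among the 4 but not among the 12, and with all 4 libraries and no block it was the 1 gene called.

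No gene of the mast cell program passed. Of the 15 granule protease genes 13 were tested and 0 called, with a median log2 difference (VApcMinL over ApcMin) of -0.38, where the median over all 885 genes was -0.22. Of the 18 IgE receptor and signaling genes 6 were tested, with a median of -0.26, and of the 31 cytokines and chemokines 6, with a median of 0.03. The tested proteases include the rule genes Mcpt1, Mcpt2 and Cpa3, and the protease median is the value of Mcpt1 itself. The tested IgE receptor genes include the rule gene Fcer1a. Values of rule genes, and medians that include them, are a description only. The log2 difference was -0.38 (SE 1.19) for Mcpt1, -1.11 (SE 1.24) for Tpsb2, -0.52 (SE 0.97) for Il6 and 0.70 (SE 0.90) for Gata2, each smaller than its standard error, and errors of this size leave room for differences of several fold in either direction.

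The genes with the next smallest unadjusted p in each direction, none of which passed (adjusted p = 0.998 by edgeR for each), were Apobec3, Luc7l2, Ecm1 and Rsrp1 on the higher side and Tsc22d3, Fosb, Gzma, Hspa9 and Defa24 on the lower side. Gzma had 225, 351, 114 and 0 UMIs in ApcMin 1, VApcMinL 1, ApcMin 2 and VApcMinL 2, the first of these mostly from 1 cell. Tsc22d3, a glucocorticoid-induced gene, had 15, 13, 4 and 1 UMIs, and its difference was of opposite sign in kit version 3, as were those of Fosb and Hspa9, each with 1 UMI in VApcMinL library 2. Defa24, a Paneth cell defensin that mast cells do not make, had 8, 13, 20 and 0 UMIs in the same order of libraries. Summed over the 15 epithelial genes of the marker list, mast cells stood at 887, 1923, 1112 and 600 CPM, and the part of such RNA in these values was not tested.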

How the data were processed

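Single-cell RNA of pooled small intestinal adenomas was sequenced with 10x 3′ chemistry in 4 libraries. The authors deposited raw UMI counts per gene and barcode, made with Cell Ranger (version 2.1.1 per the labels' processing notes, which also list Seurat 3.1.1) on the mm10 reference, with no cells selected. Barcodes were filtered, mast cells chosen and levels given as CPM over the 27514 genes shared by the tables. Members and gene lists were chosen with earlier results of these data known. Shares were compared by an exact two-sided permutation test, with Clopper-Pearson intervals. Counts summed over the mast cells of each library were compared with edgeR 4.0.16 (quasi-likelihood, TMM scaling, Benjamini-Hochberg adjustment, R 4.3.3), with kit as a block because the labels tie each replicate number to 1 kit version. Deviations of same-numbered libraries had a correlation of 0.22 over 760 genes. DESeq2 1.42.0 was an alternative. Scripts were tested on simulated data. Named genes were the rule genes, the 20 leading genes, list members by role and, between genotypes, called genes filled up to 5 a direction with those of smallest unadjusted p. Intervals and limits on a count of 0 cover counting error only. GATA words, the Tpsb2 limits and genes ranked by likeness to Tpsb2 were chosen after values were seen.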

Additional observations from a re-analysis of the deposited data

Results flagged for a closer look

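The mast cell share moved in opposite directions in the 2 kits. The library labelled VApcMinL differed from its ApcMin partner by 1.54 percentage points of all kept barcodes in kit version 2 and by -1.003 in kit version 3, and by 6.59 and -7.85 points of non-epithelial barcodes. The difference between the kits was not tested.

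Barcodes outside the comparisons also carried mast cell RNA. A further 16 barcodes with at least 500 but under 1000 UMIs met the rest of the rule, 13 of them in VApcMinL library 1. Another 16 lay over the mitochondrial limit, 11 of them in ApcMin library 2. Finally, 47 epithelial barcodes passed the protease clause.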

How the results depend on the processing

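With 2 libraries against 2 no alternative could bring the test of a share under 0.05, and fits that left out a library gave values only. The difference in the share of all kept barcodes was -0.085 points without ApcMin replicate 1 and -0.651 without VApcMinL replicate 1 (range on leaving out 1 library -0.651 to 1.19), and 0.267 with the replicate block. That in non-epithelial barcodes was 0.114 after thinning, 3.00 without ApcMin replicate 2 and 2.97 without VApcMinL replicate 2 (range -4.25 to 3.00). The count of genes was 1 without the replicate block, 0 with DESeq2, without a filter on low counts (1 gene at an unadjusted p under 0.05) and after thinning (196 genes tested, 1 under 0.05), and 0 to 12 on leaving out 1 library together with the block, which could not then be kept (0 without replicate 1 of either group, 12 without ApcMin replicate 2, 4 without VApcMinL replicate 2), where the rest of an arm is 1 library assumed to vary like the others. Single genes changed sign when a library and the block were both left out: Ecm1 (-0.42), Tsc22d3 (0.58) and Hspa9 (0.24) without ApcMin replicate 1, and Tsc22d3 (0.025) and Fosb (0.028) without VApcMinL replicate 1. Other values kept their sign and grew in size without ApcMin replicate 2 and the block, such as Ecm1 (7.32), Apobec3 (6.97), Tsc22d3 (-2.41) and Fosb (-2.11). Dropping the block alone took Ecm1 from 1.82 to 0.36 and Hspa9 from -1.79 to -0.95. Alternatives added after seeing the data put the share of cells in cycle at 1.82% without cells holding other-lineage UMIs and 23.0% at 1 or more UMIs, and cells with Il6, Il4 or Il13 at 32.2% after thinning. The causes were not tested. A fit without cells holding other-lineage UMIs was not run, since no mast cell of VApcMinL library 2 was left. With 87 cells, 1 library holding a single cell and a median of 3587 UMIs a cell, moderate differences between genotypes were not detectable.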
